A study of Mus musculus with 6 samples.

Results

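The genes described here are the hormone genes of islet cells other than β cells, Gcg, Sst and Ppy, their relatives Pyy and Npy, and 3 homeobox genes of α and δ cells, Irx1, Irx2 and Hhex. All 8 were found by symbol among the 54556 genes of the deposited expression table. RNA came from whole pancreatic islets of C57BL/6 mice at 8 weeks of age on normal chow. One group of 3 libraries is labelled Mettl3 flox/flox, meaning that both copies of Mettl3, the catalytic subunit of the enzyme that writes N6-methyladenosine on mRNA, carry recombination sites. The other group of 3 is labelled as a β-cell knockout, Mettl3 flox/flox with RIP-Cre, a Cre recombinase driven by an insulin promoter, and is called the labelled-knockout group. The labels name no group with Cre alone and do not say whether islets of several animals were pooled. The libraries held 16398862 to 18387313 reads. Mettl3 was not lower in the labelled-knockout libraries, at 4.06, 4.20 and 4.15 scaled FPKM against 3.42, 2.89 and 3.93 in flox/flox (limma adjusted p = 0.12), so whole-gene levels do not check the genotype.

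Islets hold several endocrine cell types around a majority of β cells. Glucagon, cut from the Gcg precursor in α cells, raises blood glucose, while somatostatin from δ cells acts on neighbouring α and β cells to restrain secretion. Pancreatic polypeptide (Ppy), peptide YY (Pyy) and neuropeptide Y (Npy) form a family of related peptides that end in an amide group and act on the Y receptors. Ppy marks PP cells, Pyy is made by several islet cell types and by L cells of the gut, and Npy is known from sympathetic nerves and from immature β cells. Irx1 and Irx2 are homeobox genes of α cells, and Hhex is needed for δ-cell identity.

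The stretches of mRNA that encode the mature hormones are shown because the comparisons below turn on telling these transcripts apart. They were read from the GENCODE M21 transcripts on GRCm38, 5′ to 3′. For Ppy, Pyy and Npy the 36 codons of the mature peptide are in lower case, and the capitals mark the Gly-Lys-Arg codons at which the precursor is cut and amidated. For Gcg the capitals mark the Lys-Arg codon pairs on either side of the 29 codons of glucagon, and for Sst they mark the 2 codons before the 14 codons of somatostatin-14 and the stop codon.
Gcg: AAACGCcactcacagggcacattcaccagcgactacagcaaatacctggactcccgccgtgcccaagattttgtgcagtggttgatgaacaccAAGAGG
Sst: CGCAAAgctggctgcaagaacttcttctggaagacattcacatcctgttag
Ppy: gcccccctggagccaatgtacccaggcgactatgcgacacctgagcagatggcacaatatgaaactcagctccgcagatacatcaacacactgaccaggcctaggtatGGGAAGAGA
Pyy: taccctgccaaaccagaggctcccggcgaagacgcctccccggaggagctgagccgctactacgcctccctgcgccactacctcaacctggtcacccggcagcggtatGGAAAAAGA
Npy: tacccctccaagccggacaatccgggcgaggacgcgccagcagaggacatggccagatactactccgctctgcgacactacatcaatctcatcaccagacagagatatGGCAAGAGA
Over these 108 bases Pyy and Npy were identical at 76 bases (70.4%), Ppy and Npy at 61 (56.5%) and Ppy and Pyy at 58 (53.7%). The longest exact run shared by any pair of the whole family transcripts was 10 bases, so the family members differ along their length. Ppy and Pyy are neighbours on the minus strand of chromosome 11, at 102099930 to 102101319 and 102106676 to 102107832 (GRCm38), with 5356 bases between them. Gcg lies on chromosome 2 from 62474530 to 62483650, Sst on chromosome 16 from 23889573 to 23890958, both on the minus strand, and Npy on the plus strand of chromosome 6 from 49822710 to 49829507. Irx1 and Irx2 are both on chromosome 13, at 71957921 to 71963723 and 72628820 to 72634198, and Hhex is on chromosome 19 from 37434810 to 37440731. No other annotated gene overlaps any of the 8.

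Of the 8 genes, Npy was the only one to pass the test in the main comparison. It was lower in the labelled-knockout libraries. The test was limma on log2(scaled FPKM + 0.5) over the 14497 genes whose mean reached 1 scaled FPKM. A gene passed when its Benjamini-Hochberg adjusted p was under 0.05. FPKM are reads per length of gene and library size, here on a median-of-ratios scale that sets the typical gene to no change. Hhex was below the filter, so 7 members were tested, of which 1 was lower and 0 were higher. Over all tested genes 17.2% were lower and 16.9% higher, 34.0% in all. At an unadjusted p under 0.05, 2 members were lower (Npy and Sst) and 0 higher. Of all tested genes, 37.4% had an unadjusted p no higher than that of Sst, so 2 of 7 was not above the background. At an adjusted p under 0.05, limma voom on recovered reads, an alternative, called 2 members lower and 0 higher. Its counts over all genes were close to those of the main fit. The groups did not overlap for 2 of the 7 (Npy and Sst), both with the labelled knockout lower, against 50.5% of all tested genes (25.1% higher and 25.4% lower). The median log2 difference of the 7 was -0.10, beside 0.00 (-0.00452) over all tested genes.

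**Figure D1:**
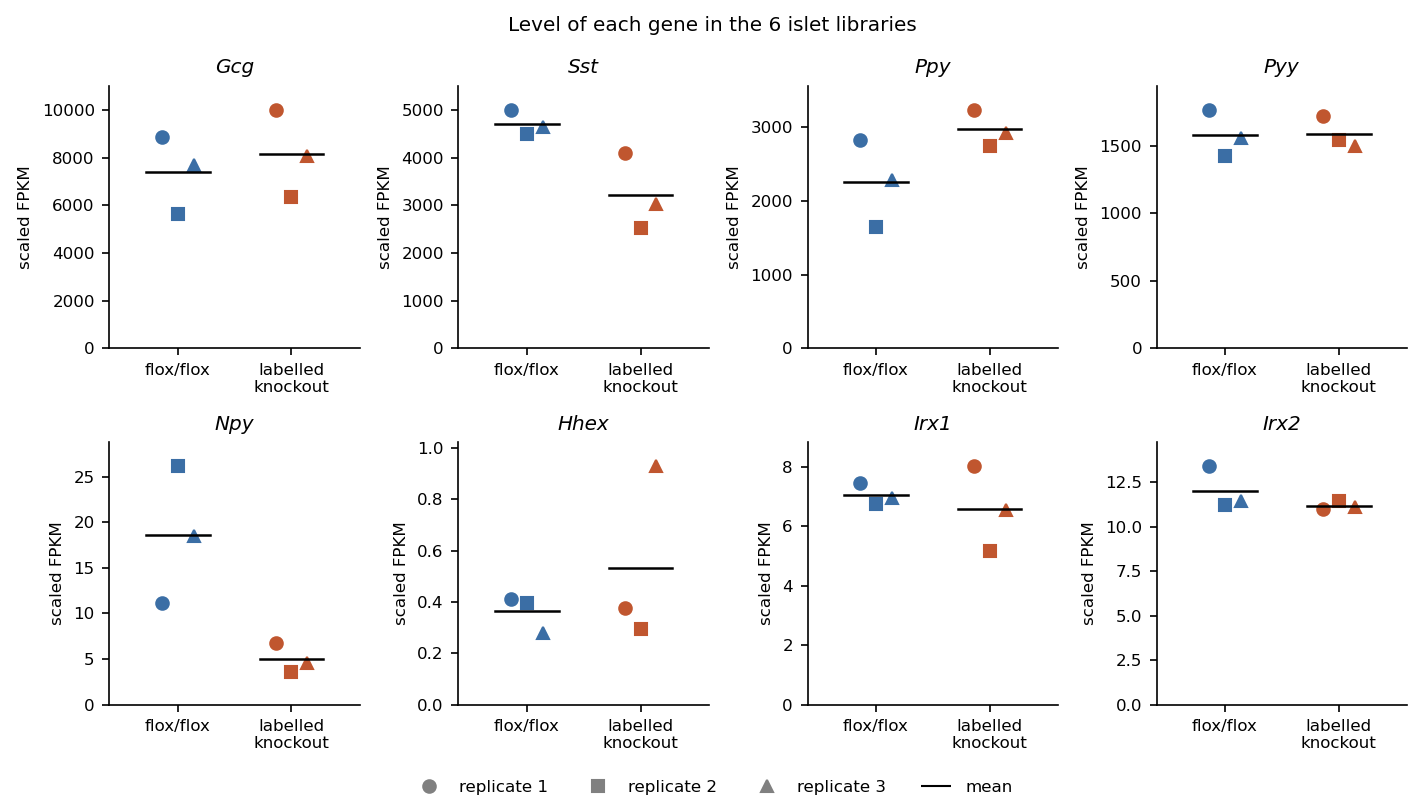
Scaled FPKM of the 8 genes (y axis, from 0) in 3 flox/flox (blue) and 3 labelled-knockout libraries (orange). Symbols give the replicate number and black lines the group means. Npy and Sst are the genes whose groups do not overlap.

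The order of levels, per length of gene, was not the same in both groups. In flox/flox libraries Gcg (5627 to 8882 scaled FPKM) was above Sst (4505 to 5008), and Sst was above Ppy (1649 to 2826), without overlap. Ppy and Pyy (1426 to 1767) overlapped there. In labelled-knockout libraries Gcg (6367 to 10005) was again highest, Sst (2526 to 4110) and Ppy (2754 to 3238) overlapped, and Ppy stood clear of Pyy (1499 to 1720). Among all genes of a library, Gcg ranked 4 to 11 and Pyy 14 to 17. The other 4 genes were lower by far. Npy (11.1 to 26.2) overlapped Irx2 (11.2 to 13.4) in flox/flox libraries, and overlapped Irx1 (5.15 to 8.02) in the others, where it spanned 3.61 to 6.78.

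Gcg stood at 8882, 5627 and 7682 scaled FPKM in flox/flox replicates 1 to 3 and at 10005, 6367 and 8061 in labelled-knockout replicates 1 to 3. The groups overlapped through most of their range. The log2 difference was 0.14 ± 0.25 (SE, 95% interval -0.46 to 0.74, limma adjusted p = 0.702). That interval holds the 0.43 of Ppy and not the -0.58 of Sst (both below). It overlaps the interval of Sst, -1.05 to -0.10, so it does not set the 2 genes apart. In bulk islets, fewer cells of a type and less RNA per cell cannot be told apart.

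Sst stood at 5008, 4505 and 4640 scaled FPKM in flox/flox libraries and at 4110, 2526 and 3027 in labelled-knockout libraries. Every labelled-knockout library was below every flox/flox library, and replicate 1 of the labelled-knockout group was nearest to the other group. The means were 4717 ± 260.3 and 3221 ± 809.9 (SD, n = 3 each). The log2 difference was -0.58 ± 0.20 (SE, 95% interval -1.05 to -0.10), with an unadjusted p of 0.0241 and a limma adjusted p = 0.0645, which did not pass. Without labelled-knockout replicate 1 it passed, at -0.77 (limma adjusted p = 0.0165). Over 18 alternatives the adjusted p was 0.0165 to 0.795, past the threshold in 4, and the difference was below 0 in 17. Quantile normalization, at 0.40 (adjusted p = 0.238), was the exception.

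Ppy stood at 2826, 1649 and 2291 scaled FPKM in flox/flox libraries and at 3238, 2754 and 2924 in labelled-knockout libraries. Flox/flox replicate 1 lay inside the labelled-knockout range, so the groups overlapped. The log2 difference was 0.43 ± 0.21 (SE, 95% interval -0.07 to 0.93, limma adjusted p = 0.158). It was above 0 in 18 of 18 alternatives and passed in 2, at 0.84 when libraries were scaled to their own totals and at 1.09 with quantile normalization (limma adjusted p = 0.0103 and 0.000838). Scaling to own totals moved the median of all genes to 0.36, and differences on that scale are read against it. Leaving out flox/flox replicate 2 brought the difference of Ppy to 0.22 (adjusted p = 0.354).

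Pyy, the neighbour of Ppy on chromosome 11, was the most even of the hormone genes. Its levels were 1767, 1426 and 1559 scaled FPKM in flox/flox libraries and 1720, 1545 and 1499 in labelled-knockout libraries. The labelled-knockout values all lay within the flox/flox range. The log2 difference was 0.01 ± 0.12 (SE, 95% interval -0.29 to 0.30, limma adjusted p = 0.974).

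Npy stood at 11.1, 26.2 and 18.4 scaled FPKM in flox/flox libraries (95, 214 and 155 reads) and at 6.78, 3.61 and 4.52 in labelled-knockout libraries (80, 40 and 53 reads). It fell to 0.268 of its flox/flox mean, from 18.6 ± 7.54 to 4.97 ± 1.63 (SD, n = 3 each). On the log2 scale it fell by 1.76 ± 0.33 (SE, 95% interval -2.56 to -0.97, limma adjusted p = 0.00887). Npy was lower in 18 of 18 alternatives and past the threshold in 17. Without labelled-knockout replicates 2 and 3, which leaves 1 library on that side, it was at -1.31 (adjusted p = 0.212). The ratio of Pyy to Npy was 54.5 to 159 in flox/flox and 254 to 428 in labelled-knockout libraries.

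The transcription factor genes did not pass. Flox/flox libraries held Irx1 at 7.44, 6.74 and 6.94 scaled FPKM, inside the labelled-knockout span of 8.02, 5.15 and 6.55. Its log2 difference was -0.11 ± 0.15 (SE, limma adjusted p = 0.599). Irx2 was at 13.4, 11.2 and 11.5 against 11.01, 11.4 and 11.1, a log2 difference of -0.10 ± 0.08 (adjusted p = 0.409), which turned to 0.29 (adjusted p = 0.0169) when scaled to own totals, below the 0.36 of the median gene. Of the other Irx genes, Irx3, Irx4, Irx5 and Irx6, 0 of 4 reached the filter. Hhex had 12, 11 and 8 reads in flox/flox and 15, 11 and 37 in labelled-knockout libraries, or 0.414, 0.397 and 0.281 against 0.375, 0.293 and 0.93 scaled FPKM. Labelled-knockout replicate 3 stood above the other 5 libraries, which did not separate by group. The exact Poisson 95% interval of its 37 reads, 26.1 to 51.0, covers counting error only. It lies above the 8 to 15 reads of the other libraries. With no filter on low values Hhex was at 0.21 ± 0.26 (SE, limma adjusted p = 0.636).

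Ratios between 2 genes of the same library do not depend on any factor that scales a whole library. Quantile normalization is not such a factor and can change them. Of the 10 ratios among the 5 hormone genes, 9 did not overlap between groups, Gcg to Pyy being the exception. All of the 9 but Gcg to Ppy and Ppy to Pyy hold Npy or Sst, the members whose own groups did not overlap. Of single tested genes 50.5% did not overlap, and the share among ratios of other gene pairs was not computed. With 3 libraries against 3, an exact two-sided permutation test cannot go below p = 0.10, and the 10 ratios share genes. In all 19 ratios were computed, and Benjamini-Hochberg adjustment over them left the smallest p at 0.127.

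**Figure D2:**
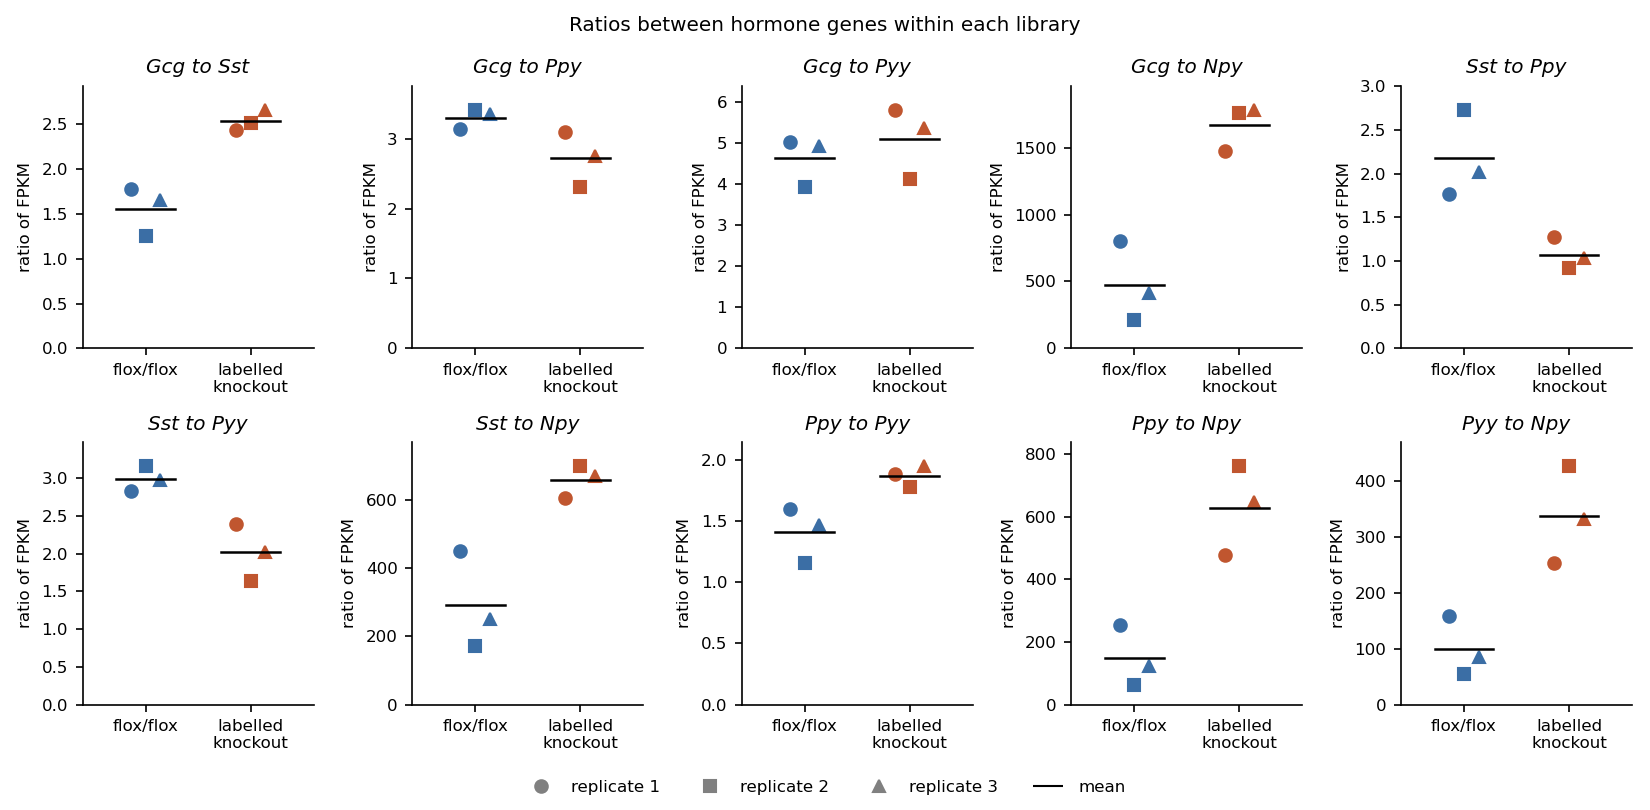
Ratio of FPKM of 2 hormone genes within a library (y axis, from 0) for the 10 pairs, in flox/flox (blue) and labelled-knockout libraries (orange), with group means as black lines. The groups are apart in every panel except Gcg to Pyy.

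The balance of Sst with the other abundant hormones was lower in every labelled-knockout library. Gcg was 1.77, 1.25 and 1.66 times Sst in flox/flox libraries and 2.43, 2.52 and 2.66 times in labelled-knockout libraries, a log2 difference of 0.72 ± 0.16 (SE, exact permutation p = 0.10). Sst was 1.77, 2.73 and 2.03 times Ppy in flox/flox libraries and 1.27, 0.917 and 1.03 times in the others, so that both genes were near the same level (log2 difference -1.01 ± 0.23 SE, exact permutation p = 0.10). Sst to Pyy went from 2.83, 3.16 and 2.98 to 2.39, 1.64 and 2.02 (-0.59 ± 0.16 SE, exact permutation p = 0.10). With labelled-knockout replicate 1 alone on that side the last difference was -0.32.

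Ppy was higher relative to its chromosome 11 neighbour and to Gcg in every labelled-knockout library. Ppy was 1.6, 1.156 and 1.47 times Pyy in flox/flox libraries and 1.88, 1.78 and 1.95 times in labelled-knockout libraries, a log2 difference of 0.42 ± 0.15 (SE, exact permutation p = 0.10). Gcg to Ppy was 3.14, 3.41 and 3.35 against 3.09, 2.31 and 2.76, a difference of -0.29 ± 0.13 (SE, exact permutation p = 0.10) in which the nearest libraries were barely apart. It was -0.18 without labelled-knockout replicate 2 and -0.10 without replicates 2 and 3. Gcg to Pyy, at 5.03, 3.95 and 4.93 against 5.82, 4.12 and 5.38, overlapped (0.13 ± 0.19 SE, exact permutation p = 0.50).

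As shares of the FPKM summed over the 5 hormone genes, Sst took 27.1%, 34.0% and 28.7% in flox/flox libraries and 21.5%, 19.1% and 19.5% in labelled-knockout libraries. Ppy took 15.3%, 12.5% and 14.1% against 17.0%, 20.9% and 18.8%. Gcg took 46.0% ± 3.02 and 50.9% ± 2.29 (SD, n = 3 each), and Pyy 9.99% ± 0.685 and 10.1% ± 1.41. The Gcg, Sst and Ppy shares did not overlap between groups (exact permutation p = 0.10 each), while those of Pyy did (exact permutation p = 0.80). A share goes up when another goes down, so these 5 values are not separate findings.

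**Figure D3:**
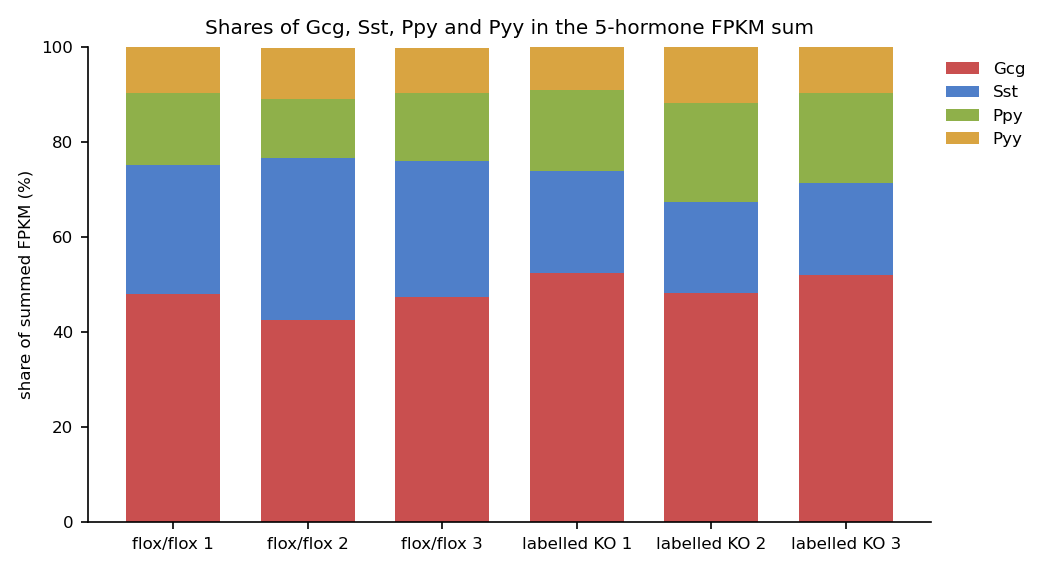
Shares (y axis, percent) of Gcg, Sst, Ppy and Pyy in the FPKM summed over the 5 hormone genes, 1 bar per library. Npy, at most 0.198%, is too small to draw. The Sst part is 27.1% to 34.0% in the flox/flox bars and 19.1% to 21.5% in the labelled-knockout bars.

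Against insulin the 4 abundant hormones stood higher in labelled-knockout libraries, where Ins1 and Ins2 themselves fell (values below). Per 1000 FPKM of Ins1 and Ins2 together, Pyy was at 5.90, 5.98 and 5.86 in flox/flox and 16.2, 15.7 and 15.1 in labelled-knockout libraries, the narrowest spread of these ratios. Ppy went from 8.32 ± 1.28 to 29.3 ± 1.28, Gcg from 27.4 ± 3.29 to 80.0 ± 14.8 and Sst from 17.7 ± 1.11 to 31.6 ± 6.61 (SD, n = 3 each). On the log2 scale the differences were 1.40 for Pyy, 1.83 for Ppy, 1.54 for Gcg and 0.82 for Sst, each with an exact permutation p = 0.10. Npy to insulin overlapped between groups (-0.47 ± 0.51 SE, exact permutation p = 0.40). Of all reads, 1.18% to 1.66% in the flox/flox group and 1.6% to 2.34% in the other group came from the 5 hormone genes. Such a share also goes up when insulin genes take fewer reads. The summed scaled FPKM of all 8 members overlapped between groups, at 13251 to 18516 in flox/flox and 13213 to 19100 in labelled-knockout libraries.

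Ratios to the transcription factors were mixed. Gcg to Irx1 was 1194, 835 and 1107 in flox/flox libraries and 1248, 1236 and 1230 in labelled-knockout libraries, without overlap and with 0.26 ± 0.16 (SE) between the groups on the log2 scale (exact permutation p = 0.10). Gcg to Irx2 (0.24 ± 0.25 SE, exact permutation p = 0.40) and Irx1 to Irx2 (-0.02 ± 0.20 SE, exact permutation p = 0.80) overlapped. Sst to Hhex did not overlap (-0.96 ± 0.56 SE, exact permutation p = 0.10), on 8 to 37 reads of Hhex per library. Without labelled-knockout replicate 3, the library with 37, the difference was -0.44. A further ratio was chosen after the values were seen and has no test. Sst to Rbp4, a retinol carrier gene enriched in δ cells, was 63.0, 64.9 and 63.6 against 61.6, 53.2 and 57.3.

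Scaling bears on each gene's own level. The direction of Npy did not turn under any of the scalings drawn, while Sst turned with quantile normalization. Irx1 and Irx2 turned with scaling to own totals, also with Ins1 and Ins2 left out of the total. Pyy turned only from 0.01 in the main fit to -0.000492 with pan-endocrine scaling. With scaling to own totals Pyy was at 0.41 (limma adjusted p = 0.0155), where the median gene was at 0.36. Scaling to the geometric mean of 9 pan-endocrine transcription factor genes, added after the data were seen, gave -0.59 for Sst, 0.42 for Ppy and -1.77 for Npy (limma adjusted p = 0.0542, 0.0978 and 0.0126), beside -0.58, 0.43 and -1.76 in the main fit.

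**Figure D4:**
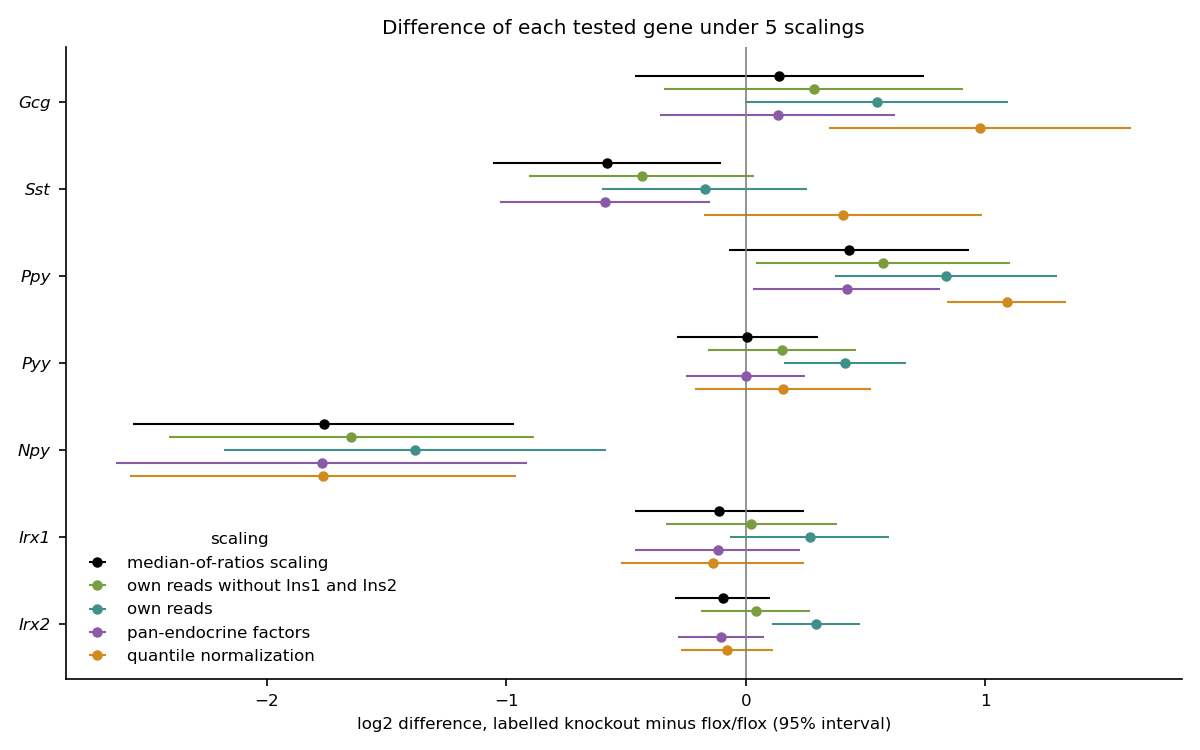
Log2 difference, labelled knockout minus flox/flox (x axis), with 95% limma intervals, for the 7 tested genes under 5 scalings (colours). Npy stays below 0 in all 5, and quantile normalization moves Gcg, Sst and Ppy upwards, to 0.98, 0.40 and 1.09.

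Most members shared an order of libraries within a group. Flox/flox replicate 1 was the highest of its group for 7 of the 8 genes and replicate 2 the lowest for 6. In the labelled-knockout group, replicate 1 was highest for 6 and replicate 2 lowest for 6. Markers of cells outside the endocrine islet also differed by library and group. The 16 enterocyte markers, of which 13 of 14 tested rose, summed to 59.9, 50.8 and 54.0 scaled FPKM in flox/flox libraries and to 153, 952 and 495 in labelled-knockout replicates 1 to 3. Within the labelled-knockout group Gcg, Sst, Ppy, Npy, Hhex and Irx1 were lowest in replicate 2, where these markers were highest. In the flox/flox group only Npy was lowest in the library where they were highest, replicate 1. The count of enterocyte markers higher was 8 to 14 when 1 library was left out (8 without labelled-knockout replicate 3 or flox/flox replicate 3) and 3 with limma voom. Alpi and Krt20, enterocyte genes, had 0 reads in all 3 flox/flox libraries. All 9 tested lymphocyte markers of 11 rose, and the list went from 13.0 to 24.5 up to 981 to 1492 scaled FPKM. Of 12 tested acinar markers of 13, 10 fell and the list summed to 778, 2378 and 1263 against 656, 349 and 481, with Ptf1a, an acinar transcription factor, at 0 reads in 5 of 6 libraries. The count of acinar markers lower was 0 without flox/flox replicate 3, labelled-knockout replicate 2 or labelled-knockout replicate 3, and 1 without flox/flox replicate 2. Ductal markers summed to 86.0 to 153 and 134 to 142, with 1 of 6 tested falling, and all 7 endothelial markers fell, from 587 to 600 down to 297 to 338. The part of these cells in the hormone levels was not tested.

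By profile over the 6 libraries, Npy was nearest to acinar genes. Its 3 nearest profiles among 7064 named genes averaging 5 scaled FPKM or more were Cela1, Cpa1 and Try5, all genes of digestive enzymes from acinar cells. The root mean square distance was 0.18, 0.18 and 0.19 on the log2 scale over the 6 libraries, against a spread of Npy itself of 0.98. Npy and the acinar sum had the same order over all 6 libraries, highest in flox/flox replicate 2 and lowest in labelled-knockout replicate 2. Relative to the summed acinar markers, a ratio chosen after the values were seen, Npy was at 0.0143, 0.0110 and 0.0146 in flox/flox and 0.0103, 0.0103 and 0.00939 in labelled-knockout libraries, a log2 difference of -0.40 beside -1.76 for Npy alone. The part of acinar tissue in the fall of Npy was not tested.

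**Figure D5:**
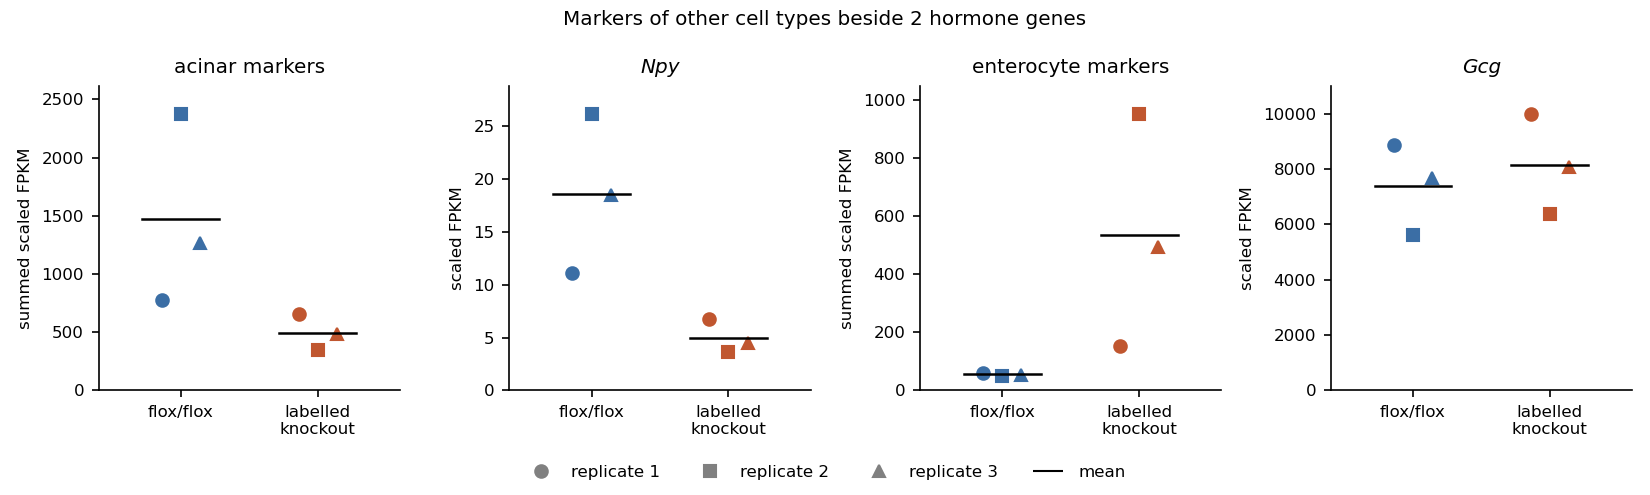
Summed scaled FPKM of 13 acinar and 16 enterocyte markers beside scaled FPKM of Npy and Gcg (y axes, from 0) in the 6 libraries, symbols giving the replicate number. Npy and the acinar sum are both highest in flox/flox replicate 2, and Gcg is lowest in its group in labelled-knockout replicate 2, where the enterocyte sum reaches 952.

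Markers of nerves, a known source of Npy, moved in both directions. Of 13 neuron and glia markers 4 were tested, of which 2 rose and 2 fell, and their summed level overlapped, at 31.0 to 36.3 against 28.9 to 41.1 scaled FPKM. Th, tyrosine hydroxylase of catecholamine neurons, which β cells can also express, fell by 1.66 ± 0.08 on the log2 scale (SE, limma adjusted p = 7.47e-05), from 16.2 to 4.75 scaled FPKM. Dbh, the enzyme that makes noradrenaline, was at 0 to 0.0570 scaled FPKM in every library. Ret, a receptor of neurotrophic factors, rose by 0.74 ± 0.15 (adjusted p = 0.0109). Vip, a gut and nerve peptide, rose by 2.10 ± 0.52 (adjusted p = 0.0228), a call lost in 4 of the 6 fits that left out 1 library (up to 0.0899).

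The other hormones had other nearest profiles, given as descriptions over 6 libraries. For Ppy these included Tox3 and Dusp26 (distances 0.06 and 0.06). For Gcg they were Per1, Arg1 and Hes6 (0.04, 0.07 and 0.07), for Sst Cd63-ps, Bex4 and Junb (0.06, 0.08 and 0.09), and for Pyy Thoc3, Mepce and Rps15 (0.02, 0.03 and 0.03). The spread of Pyy itself was 0.11.

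Of 11 α-cell genes 8 were tested, of which 2 rose, 2 fell and 4 did not pass, with a median log2 difference of 0.13. Gc, the vitamin D binding protein, rose by 0.67 ± 0.10 and Ttr, transthyretin, by 0.57 ± 0.14 (SE, limma adjusted p = 0.00323 and 0.0238), while Cryba2, a crystallin, fell by 0.44 ± 0.08 and Slc7a2, an arginine transporter, by 0.41 ± 0.08 (adjusted p = 0.00735 and 0.0118). The call of Ttr was lost in 4 of the 6 fits that left out 1 library, the exceptions being the fits without labelled-knockout replicate 2 or flox/flox replicate 1 (up to 0.0824). With scaling to own totals 5 of the α-cell genes were higher and 0 lower. On that scale most of all tested genes were higher too (counts below), so the 5 do not set this list apart. Cryba2 and Slc7a2 came to -0.04 and -0.01, below the 0.36 of the median gene.

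Most δ-cell genes were too low to test, as Hhex was. Of 8 listed, 2 passed the filter, of which 1 rose and 1 fell. Rbp4, which fell, went from 79.5, 69.4 and 73.0 to 66.7, 47.5 and 52.8 scaled FPKM, a log2 difference of -0.42 ± 0.13 (SE, limma adjusted p = 0.0481). Its call was lost in 5 of 6 fits, all but the fit without labelled-knockout replicate 1 (up to 0.142). Of 7 PP-cell genes, 5 were tested, with 1 rise, 2 falls and a median of -0.30. Etv1, a transcription factor, rose by 0.63 ± 0.15, Slitrk6, a membrane protein, fell by 0.64 ± 0.10 and Spock1, a proteoglycan, by 0.48 ± 0.14 (adjusted p = 0.0183, 0.00393 and 0.0391). Etv1 lost its call without labelled-knockout replicate 1 or 3 (up to 0.0682), and Spock1 in every fit but that without labelled-knockout replicate 1 (up to 0.114).

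Receptors of the glucagon family fell, 3 of the 3 tested out of 4. Gcgr, the glucagon receptor, went from 34.1, 27.9 and 31.1 to 17.3, 10.9 and 13.8 scaled FPKM, and fell by 1.14 ± 0.17 on the log2 scale (SE, limma adjusted p = 0.00342). Gipr, the receptor of the incretin GIP, fell by 1.64 ± 0.13 and Glp1r, the receptor of GLP-1, by 0.67 ± 0.07 (adjusted p = 0.000361 and 0.00112). These receptors are known from β cells, and of the 8 β-cell genes listed 7 fell, with a median of -1.07. Slc2a2, Mafa, Ins1 and Ins2 led that list, falling by 2.26, 2.77, 1.74 and 1.29 (adjusted p = 1.43e-05, 0.000361, 0.00307 and 0.0362). Ins2 lost its call in each fit that left out 1 library (adjusted p = 0.0695 to 0.22). Of 5 somatostatin receptors only Sstr3 was tested. It was at 53.1, 52.7 and 49.7 against 48.8, 44.3 and 45.0 scaled FPKM (adjusted p = 0.0927). Sstr2, the receptor of α cells, had 18, 16 and 27 reads against 52, 38 and 43, below the filter.

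The Y receptors, through which Ppy, Pyy and Npy act, were almost without reads. Of 5, 0 reached the filter. Npy1r had 0, 15 and 7 reads in flox/flox and 19, 18 and 16 in labelled-knockout libraries. Npy4r, the receptor that prefers pancreatic polypeptide, had 3 reads in labelled-knockout replicate 1 and 0 elsewhere. Npy2r, Npy5r and Npy6r had 0 reads in all 6 libraries, which allows up to 3 reads in each.

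Of the genes that process the prohormones, 7 were tested: 4 rose and 3 did not pass, with a median log2 difference of 0.49. Pam, which turns the glycine of the Gly-Lys-Arg site shown in capitals above into the terminal amide, went from 36.9, 37.7 and 38.8 to 100.03, 65.8 and 84.7 scaled FPKM, and rose by 1.11 ± 0.15 (SE, limma adjusted p = 0.00235). Scg5, the chaperone of the convertase PC2, rose by 1.09 ± 0.15 and Pcsk1, the convertase PC1/3, by 0.63 ± 0.15 (adjusted p = 0.00296 and 0.0209). Dpp4, a peptidase that trims PYY, NPY and GLP-1, rose by 0.24 ± 0.07 (adjusted p = 0.033). Pcsk1 lost its call when labelled-knockout replicate 3, or flox/flox replicate 1 or 3, was left out (up to 0.0726). Dpp4 lost it in the same fits and also without labelled-knockout replicate 2 (up to 0.123). Pcsk2, the convertase that frees glucagon in α cells, was at 364, 368 and 345 against 418, 321 and 352 (adjusted p = 0.958). The libraries do not show which islet cells carried these transcripts.

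Of 9 tested of 10 transcription factor genes shared by all islet cells, 2 rose, 2 fell and 5 did not pass, with a median of -0.02. With scaling to own totals, where the median of all genes was 0.36 and most tested genes were higher, 7 were higher and 0 lower. Rfx6 rose by 0.49 ± 0.06 and Insm1 by 0.30 ± 0.07, while Pax6 fell by 0.46 ± 0.08 and Neurod1 by 0.23 ± 0.06 (SE, limma adjusted p = 0.00227, 0.0167, 0.00595 and 0.0334). Insm1 lost its call without flox/flox replicate 3 (0.0674). Neurod1 passed in leave-one-out fits only without labelled-knockout replicate 1 or flox/flox replicate 2 (otherwise up to 0.126), and turned to 0.18 with scaling to own totals.

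Gut endocrine hormones were low. Of 9, 3 were tested and Gast, the gastrin gene, rose, from 0.431, 1.204 and 0.439 to 4.17, 1.78 and 2.41 scaled FPKM (1.46 ± 0.35 SE on the log2 scale, limma adjusted p = 0.0204). That call was lost when labelled-knockout replicate 3, or flox/flox replicate 1 or 3, was left out (up to 0.065). Gast was highest in labelled-knockout replicate 1, where enterocyte markers were lowest of that group. Ghrl, the ghrelin gene of ε cells, was at 1.04, 0.513 and 1.62 against 0.889, 0.853 and 1.12 (adjusted p = 0.93). Gip, of intestinal K cells, was without reads in flox/flox islets and had 4, 59 and 21 in labelled-knockout replicates 1 to 3, the order of the enterocyte markers (limma adjusted p = 0.0596). Insl5, a hormone of colonic L cells that also make Pyy, was at 0 to 0.133 scaled FPKM. The part of gut L cells in the level of Pyy was not tested.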

How the data were processed

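The authors deposited 1 table of FPKM for 6 libraries, with gene lengths in bases per the file headers. The genome build was GRCm38 at patch 6, and the tools listed, per the submitters' processing notes, were featureCounts 1.5.0-p3, DESeq2 1.16.1 and HISAT2 2.0.5. Roles, settings and strandedness: not given in the sources used here. Multiplied by length, each library's FPKM were multiples of a common step (100% of values within 0.1 of whole), taken as reads. Their totals set the depth, and intervals and floors cover counting error only. Median-of-ratios factors of the deposited values were 1 in each library. Genes whose mean reached 1 scaled FPKM entered limma 3.58.1 (R 4.3.3, variance trend, two-sided) on log2(scaled FPKM + 0.5), a scale that understates changes of low genes. Nothing says the libraries came from separate animals, so p-values measure only the spread between them. Ratios were tested by exact two-sided permutation.

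Named genes are the members, Mettl3, Ins1, Ins2, up to 4 members of each of 17 gene lists with the largest difference past the threshold, and the 3 nearest profiles of each hormone gene; others were chosen after their values were seen. For lists of other cell types counts and summed levels are given. Some genes that the rule names are not reported here. Members and lists were chosen with earlier results of these data known. Alternatives were pseudocounts of 0.1 and 1, filters, scalings, limma voom on the recovered reads, no variance trend, left-out libraries and a replicate block.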

Additional observations from a re-analysis of the deposited data

How the results depend on the processing

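Depth limits Hhex, the Y receptors and most δ-cell genes, and 3 libraries a group limit the ratios. For all genes higher and all genes lower the main counts were 2446 and 2489. A filter at 5 FPKM gave 1247 higher, scaling to own totals 7643 higher and 709 lower (3813 and 1562 with Ins1 and Ins2 left out of the total), and leaving out labelled-knockout replicates 2 and 3 together 771 and 546. Leaving out 1 library gave 1370 to 2106 higher and 1410 to 2130 lower.

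Of the members, 1 was lower in the main fit. With a filter at 5 FPKM, limma voom or the replicate block 2 were lower, and 1 to 2 when 1 library was left out. Without labelled-knockout replicates 2 and 3 the count was 0. Scaling to own totals made 3 higher (Ppy, Pyy and Irx2) and quantile normalization 2 (Gcg and Ppy). Sst passed at -0.58 with a filter at 5 FPKM, limma voom and the replicate block (limma adjusted p = 0.0428, 0.0256 and 0.0342), and moved to 0.40 with quantile normalization. Quantile normalization gave 0.98 for Gcg and 1.09 for Ppy, and scaling to own totals 0.84 for Ppy, 0.41 for Pyy, 0.27 for Irx1 and 0.29 for Irx2. With Ins1 and Ins2 left out of the total, Irx1 was at 0.022 and Irx2 at 0.041. Npy was at -1.31 without labelled-knockout replicates 2 and 3, where Irx1 was at 0.18, Gcg to Ppy at -0.10 and Sst to Pyy at -0.32. Pyy was at -0.00 (-0.000492) with scaling to pan-endocrine factors. The cause of these moves was not tested.

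When 1 library was left out, Gcg spanned -0.045 to 0.31, Sst -0.77 to -0.42, Ppy 0.22 to 0.61, Pyy -0.066 to 0.089, Npy -2.08 to -1.48, Irx1 -0.25 to 0.041 and Irx2 -0.14 to -0.02. Replicate numbers were not taken to pair libraries: deviations of same-numbered libraries correlated at 0.0811, 0.0751 and 0.0423 across genes, all under 0.1, while each library correlated best with its own number. With the replicate block the counts of all genes higher and all genes lower were 2313 and 2346, Sst was called, and 1 of the acinar markers was lower in place of 10. Without a filter on low values 0 of them were. Quantile normalization sets Ins1 and Ins2 to no difference, since they ranked 2 and 1 in each library.

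Among the gene lists, scaling to own totals also gave 7 of the prohormone processing genes higher in place of 4, and 2 acinar markers lower in place of 10. It left 0 of the PP-cell genes, δ-cell genes and ductal markers lower, in place of 2, 1 and 1, and 1 of the neuron and glia markers in place of 2. Gut endocrine hormones, somatostatin receptors and ductal markers then had 2, 1 and 1 higher in place of 1, 0 and 0. On that scale most of all tested genes were higher and few were lower, as counted above. The list counts are read against that background.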
